A study of Mus musculus with 6 samples.

Results

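Cytosolic ribosomal protein genes encode the proteins of the 2 ribosomal subunits that translate messenger RNA outside mitochondria. They were followed in cultured mouse satellite cells, the muscle stem cells that form myoblasts, after treatment with BAPN (β-aminopropionitrile), which blocks lysyl oxidases, enzymes of matrix cross-linking. Members were all genes whose symbol starts with Rpl, Rps or Rplp followed by a digit, and Rpsa; the kinase genes named Rps6k and symbols containing -ps were left out. The rule reads names alone, but this group and the gene lists below were chosen with earlier results of these data known. The rule gave 89 of the 18864 genes in the deposited table. Of the 89, 52 carry names of the large subunit and 36 of the small subunit, and Rps19bp1 is named after a subunit protein but encodes no subunit. The annotation used here (GENCODE M21, mouse build GRCm38) lists 85 of them as protein-coding, spread over 19 chromosomes, and Rpl37rt, Rps4l, Rps3a2 and Rps3a3 as pseudogenes.

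A ribosome is built in the nucleolus from ribosomal RNA and, for most of the proteins, a single copy of each, and cells degrade those that are not assembled. The mRNAs of most of them begin with a stretch of pyrimidines, the 5′ terminal oligopyrimidine (TOP) tract, through which the kinase complex mTORC1 and the RNA-binding protein LARP1 control their translation and stability. Proliferating and growing muscle cells are known for a high demand for ribosomes.

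The BAPN group held 3 libraries of cells kept for 24 h in differentiation medium with 0.25% BAPN, and the control group held 3 libraries of cells kept in that medium without it. Cells of both groups came from the gastrocnemius, were plated repeatedly so that fibroblasts, which attach faster, were left behind, and were then kept on 4% matrigel, a gel of basement membrane proteins. The strain is labelled C56Bl/6 for the samples and C57Bl/6 for the series, the mice are given as aged 8 weeks per sample but 6 weeks in the protocol text, and the serum as 4% horse (series text) or 10% fetal calf (protocol text). The series text calls the 3 replicates of a group independent, but the labels do not say whether same-numbered BAPN and control cells came from 1 animal. RNA integrity was under 7.5 in 2 samples that the labels do not identify, so its part in any result was not tested.

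Libraries held 17125602 to 18617656 counts in the BAPN group and 18335559 to 18682099 in the control group. The cells carried the labelled identity: all 8 myogenic genes examined were present in every library, and Myog, the regulator that starts differentiation, was at 23686, 23399.7 and 27881 normalised counts in BAPN libraries, against 62877, 60156 and 64858 in control libraries. Myog was lower with BAPN (log2 fold change −1.33 ± 0.091 SE, edgeR adjusted p 0.000138), as were Myod1, Des, Cdh15, Chrna1 and Tnnt3, while Pax7 and Myf5 did not pass the test. Summed counts of 8 fibroblast markers were 3043 to 3721 in BAPN libraries and 4762 to 6277 in control libraries, with Col1a1 and Col3a1, which myogenic cells also express, lower. The other 3 that could be tested did not pass, with log2 fold changes of 0.66 for Pdgfra (edgeR adjusted p 0.0771, and 0.0208 with the replicate number as a block), −0.37 for Thy1 (0.0564, and 0.0424 with the block) and 0.10 for Dcn (0.778), and the defining markers Lum, Dpt and Pi16 were at 13.3 normalised counts or less in every library. Macrophage marker sums were 219 to 302 with BAPN and 149 to 244 in controls, and of the 3 that could be tested Cd68 was higher (2.32), Itgam lower (−1.10) and Lyz2 did not pass (−1.14). Ptprc, Adgre1 and Csf1r, which define that type, were at 18.8 normalised counts or less in every library. Endothelial sums were 86.9 to 136 with BAPN and 84.3 to 108 in controls, and adipocyte sums were 131 to 169 with BAPN and 152 to 202 in controls, with Cidec at 0 and no tested marker of either called. The part of these cell types in the results below was not tested. Replicates 1 and 2 were closer to each other than to replicate 3 in both groups: the median absolute log2 difference was 0.08 between BAPN replicates 1 and 2 and 0.18 to 0.19 from either to replicate 3, against 0.09 and 0.17 in controls.

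Every ribosomal protein gene that could be tested had a lower estimate with BAPN (72 of 85 when scaled by total counts), and 51 of the 85 fell at an adjusted p under 0.05. None rose. The call was an edgeR quasi-likelihood test across the 13716 genes with a mean normalised count of at least 10, with Benjamini-Hochberg adjustment over all of them. A normalised count is the raw count divided by the authors' size factor for that library. These factors did not follow total counts alone. Control replicate 1 had 18682099 counts and a factor of 0.98, and BAPN replicate 1 had 18414134 and 1.07. Of all genes tested, 20.8% were called lower and 15.6% higher. At an unadjusted p under 0.05, 66 members were lower and 0 higher. The shares of all genes at that unadjusted threshold were not computed, so nothing particular to the members is read from these counts. DESeq2 called 50 members lower (20.4% of all genes), limma-trend 51 (20.7%), and both called 0 higher. In the authors' deposited table, 50 members were lower at an adjusted p under 0.05 and 0 higher, and 48 of the 51 were among those 50. That table rests on the same 6 libraries, and its share over all genes was not computed.

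The change was small for each gene and shared by most of them. The median log2 fold change of the 85 tested members was −0.27, which is a level 16.8% lower, against −0.03 over all genes tested. Scaled by total counts it was −0.11, against 0.12 over all genes. Other values in this paragraph use the authors' size factors. The middle 50% of members lay between −0.35 and −0.19, and the whole range ran from −0.84 for Rps4l to −0.04 for Rpl24. The share with a log2 fold change below 0 was 85 of 85, against 53.7% of all genes. Values of the BAPN and control groups did not overlap for 65 of the 85 members, all with BAPN lower, against 28.5% of all genes tested. Because RNA was bulk, fewer cells of a type with high ribosomal protein expression and less of this RNA per cell cannot be told apart.

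**Figure D1:**
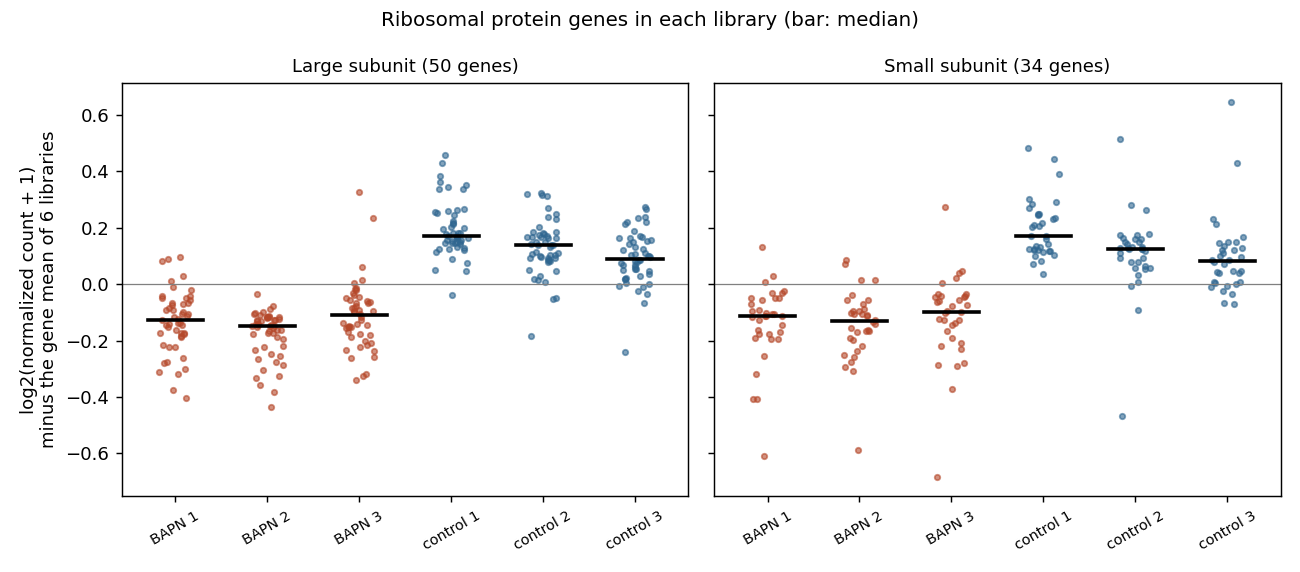
Level of each tested large subunit gene (left) and small subunit gene (right) in each library, as log2(normalised count + 1) minus that gene's mean over the 6 libraries; points are genes and bars are medians. The medians lie below 0 in the 3 BAPN libraries and above 0 in the 3 control libraries of both panels, and control replicate 3 has the lowest control median.

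Genes of both subunits fell, with medians close to each other. In the large subunit, 32 of 50 tested genes fell with a median log2 fold change of −0.27. In the small subunit, 18 of 34 fell with a median of −0.26, and 20.8% of all genes fell. Rps19bp1, a regulator of the deacetylase SIRT1 that binds RPS19, also fell (−0.31 ± 0.074, adjusted p 0.0144). Groups did not overlap for 39 of the 50 large subunit genes and 25 of the 34 small subunit genes, against 28.5% of all genes. The median difference within same-numbered libraries was −0.31, −0.29 and −0.23 for the large subunit and −0.29, −0.25 and −0.17 for the small subunit in replicates 1, 2 and 3. The libraries numbered 3 thus showed the smallest difference in both subunits, and whether same numbers mark pairs is not known. No test of a difference between subunits was made, since the genes of a subunit are not replicates.

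Among the sums, the picture was less uniform than gene by gene. Ribosomal protein genes took 1.34%, 1.32% and 1.30% of all counts in BAPN libraries, against 1.47%, 1.44% and 1.28% in control libraries. Control replicate 3 lay below all BAPN libraries on this measure, so the groups overlapped. Beside this, the 10 highest genes took 6.19% to 6.34% of counts with BAPN and 7.78% to 9.17% in controls, with the highest share in control replicate 3, and their part in the overlap was not tested. Scaled by size factors instead, the median member lay 0.12, 0.15 and 0.10 below its mean over 6 libraries in BAPN libraries 1, 2 and 3, against 0.17, 0.13 and 0.09 above it in control libraries 1, 2 and 3.

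**Figure D2:**
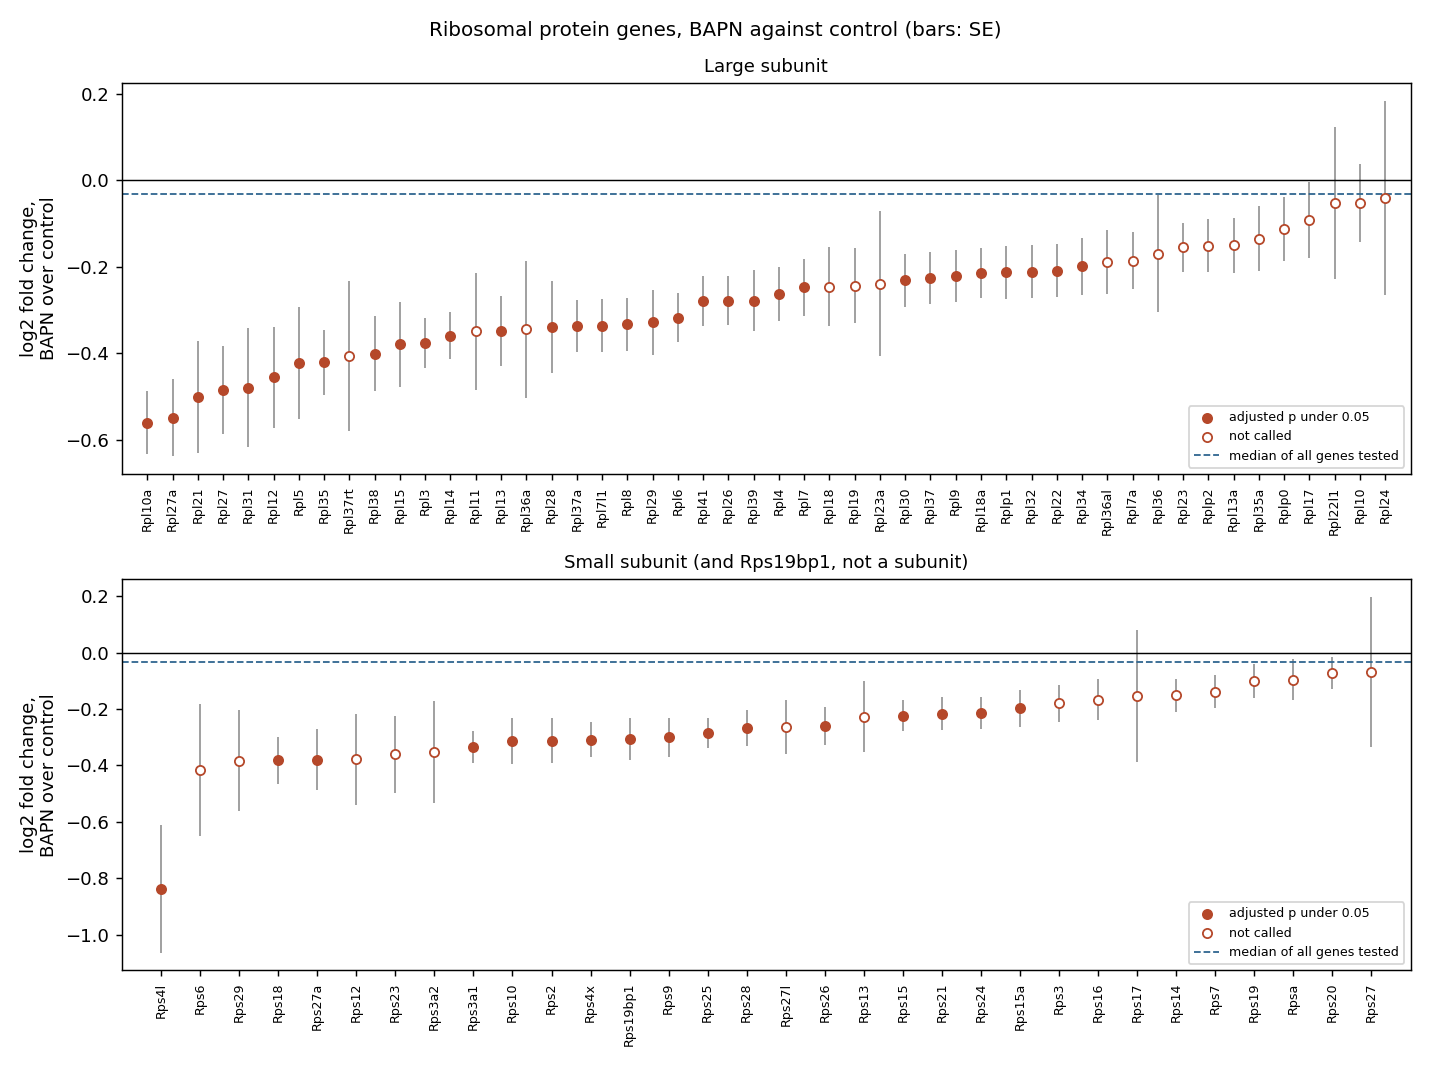
Log2 fold change, BAPN over control, of 82 tested members in order of size, large subunit genes above and small subunit genes with Rps19bp1 below; bars are standard errors of the edgeR fit, filled points have an adjusted p under 0.05, and the dashed line is the median of all genes tested (−0.03). All points lie below 0 with the authors' scaling (13 lie above 0 with total counts), and open points are most frequent at the right, where the estimates are small, and among genes with long bars.

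Windows around the annotated starts of 10 members are printed here as examples, most of them with long pyrimidine runs. The longest run has 10 to 21 bases except in Rpl6 (6), beside a median of 7 over 78 member windows. No short run is shown for a gene that was not called. Each window runs from 20 bases before to 30 bases from the annotated transcript start, 5′ to 3′ on the gene's strand, from RefSeq on GRCm38.p6, and capitals mark its longest unbroken run of C and T. The first 7 genes were called lower with BAPN and the last 3 were not.
Rpl14 (chr9:120571497-120571546, plus strand): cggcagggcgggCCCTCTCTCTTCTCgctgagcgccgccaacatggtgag
Rpl6 (chr5:121204481-121204530, plus strand): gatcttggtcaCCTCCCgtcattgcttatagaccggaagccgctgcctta
Rpl27a (chr7:109519175-109519224, plus strand): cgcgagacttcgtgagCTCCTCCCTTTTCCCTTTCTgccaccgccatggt
Rpl35 (chr2:39005102-39005151, minus strand): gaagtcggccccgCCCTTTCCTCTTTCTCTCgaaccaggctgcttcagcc
Rpl15 (chr14:18270957-18271006, minus strand): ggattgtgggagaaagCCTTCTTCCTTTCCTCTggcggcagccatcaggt
Rps10 (chr17:27635215-27635264, minus strand): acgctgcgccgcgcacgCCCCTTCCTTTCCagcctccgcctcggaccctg
Rps18 (chr17:33955636-33955685, minus strand): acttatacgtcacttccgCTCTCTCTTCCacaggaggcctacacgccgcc
Rplp2 (chr7:141447631-141447680, plus strand): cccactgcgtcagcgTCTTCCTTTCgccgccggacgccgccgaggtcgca
Rps6 (chr4:86857338-86857387, minus strand): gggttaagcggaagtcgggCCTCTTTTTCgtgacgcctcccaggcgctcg
Rpl7a (chr2:26910787-26910836, plus strand): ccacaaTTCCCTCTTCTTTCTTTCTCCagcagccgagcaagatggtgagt

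RefSeq promoter windows matched 66 of the 89 members by symbol, with 78 annotated starts. A run of at least 8 pyrimidines (C or T) on the gene's strand occurred in 35 of the 78 windows (44.9%), against 19.0% of 32851 windows of all genes. The run could lie anywhere in the window, so it need not be a TOP tract. Runs of at least 8 purines, the same search on the other strand, occurred in 7.69% of member windows and 21.9% of all. The letters CTTTCC, which overlap such runs, were found on the gene's strand in 38.5% of member windows and 14.1% of all, and on the other strand in 19.2% and 14.4%. The letters CCGGAAG, a core bound by ETS factors, were found on either strand in 34.6% of member windows and 8.86% of all. Among all tested members 60% fell, and among all genes 20.8%. Of 34 tested members with a run of at least 8, 21 fell with a median log2 fold change of −0.28. Of 29 tested members with a window but no such run, 16 fell with a median of −0.23. The printed windows show both cases: Rpl6 fell with a short run that ends before the annotated start, and Rpl7a has a run of 21 and did not pass the test without the replicate block (edgeR adjusted p 0.0592, and 0.0231 with it).

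Rpl3, Rpl14 and Rpl6 were all called lower in the large subunit; positions of genes are given here in GRCm38 from GENCODE M21. Rpl3, which reaches towards the peptidyl transferase centre (chr15:80077791-80091868, minus strand), had 1127, 1176 and 1163 normalised counts in BAPN libraries, against 1506, 1551 and 1442 in control libraries. The 2 ranges were apart and the change on the log2 scale was −0.38 ± 0.058 (edgeR adjusted p 0.00236). Rpl14, a large subunit protein (chr9:120571444-120574654, plus strand), had 2367, 2461 and 2493 with BAPN and 3094, 3098 and 3201 in controls, a change of −0.36 ± 0.054 (adjusted p 0.00226). Rpl6 (chr5:121204481-121209241, plus strand) had 2331, 2455 and 2286 with BAPN and 2959, 2988 and 2866 in controls, a change of −0.32 ± 0.057 (adjusted p 0.00428). None of these 3 genes had overlapping groups, and all 3 kept an adjusted p under 0.05 when any 1 library was left out, with a highest value of 0.0226.

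At the catalytic centre, 2 of 3 genes fell, beside 60% of all tested members and 20.8% of all genes. Rpl8, whose protein lies beside the peptidyl transferase centre and is 1 of the most abundant members, had 13614, 13602 and 13791 normalised counts with BAPN and 17917, 17209 and 16532 in controls (−0.33 ± 0.062, edgeR adjusted p 0.005). Its 3 BAPN values lay within a narrow band below every control value. Rpl10, which joins late and is needed for the subunits to pair, had 514, 448 and 470.4 with BAPN and 540.0, 468 and 478 in controls, with overlapping groups (−0.05 ± 0.09, adjusted p 0.684). Its nominal 95% interval, from a normal approximation that is too narrow for so few libraries, ran from −0.23 to 0.13. Its estimate was above 0 with total counts or without control replicate 1.

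The largest falls of large subunit genes were those of Rpl10a and Rpl27a. Rpl10a, a protein of the stalk that releases spent transfer RNA (chr17:28328471-28331033, plus strand), had 710.0, 683 and 737 normalised counts with BAPN and 1099, 1073 and 966 in controls. Every BAPN library was far below the lowest control, with a log2 change of −0.56 ± 0.073 (edgeR adjusted p 0.00124). Rpl27a had 621, 649 and 644 with BAPN and 1039, 929 and 832 in controls (−0.55 ± 0.089, adjusted p 0.00295). Rpl10a was the member with the smallest p, and its call was the only one that lasted when replicates 1 and 2 of each group were summed to 1 library. Further genes with small p were Rpl37a (−0.34), Rpl35 (−0.42), Rpl7l1 (−0.34) and Rpl8, with adjusted p of 0.00431, 0.00434, 0.00458 and 0.005 in that order.

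Both proteins of the 5S ribonucleoprotein, Rpl5 and Rpl11, which bind 5S ribosomal RNA and, when unassembled, the p53 regulator MDM2, had few counts here. Rpl5 had 89.9, 107 and 113 with BAPN and 136, 140.3 and 139 in controls (−0.42 ± 0.13, edgeR adjusted p 0.035). Rpl11 had 86.2, 95.9 and 102 with BAPN and 116, 133 and 112 in controls (−0.35 ± 0.13, adjusted p 0.0769), so its groups did not overlap but it missed the threshold. The call for Rpl5 did not last when 1 library was left out, with an adjusted p of up to 0.123.

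Of the 4 genes of the stalk that recruits translation factors, 2 fell. Among all tested members 60% fell, and among all genes 20.8%. Rplp0, the stalk's base, had 18501, 18577 and 17949 with BAPN and 21065, 20205 and 18201 in controls, and control replicate 3 lay within the BAPN range (−0.11 ± 0.074, edgeR adjusted p 0.271). The acidic stalk proteins gave −0.21 ± 0.061 for Rplp1 (adjusted p 0.0289) and −0.15 ± 0.062 for Rplp2 (adjusted p 0.0911). Rpl12, which sits at the stalk's foot, had −0.46 ± 0.12 (adjusted p 0.018) from 249, 242 and 308 counts with BAPN and 394, 352 and 348 in controls.

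Of 8 genes for proteins that line the peptide exit tunnel or ring its mouth, 5 fell, with a median over the 8 of −0.27. The share was 60% over all tested members and 20.8% over all genes. Rpl4 (chr9:64173375-64178666, plus strand), which narrows the tunnel, had the highest level of any member by normalised count, at 25122, 24670.1 and 23957 with BAPN and 29859, 29698 and 28961 in controls. Its groups were well apart at −0.26 ± 0.063 (edgeR adjusted p 0.0138). Rpl35 had 792, 743 and 784 with BAPN and 1029, 1118 and 957 in controls, Rpl31 changed by −0.48, Rpl39 by −0.28 and Rpl26 by −0.28, and all 4 of these passed. Rpl19 (−0.24, adjusted p 0.0593, and 0.0438 with the replicate block), Rpl23a (−0.24, adjusted p 0.303) and Rpl17 (−0.09, adjusted p 0.442) did not pass.

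In the small subunit, 4 of 6 genes for proteins at the decoding site or the mRNA channel fell. Over all tested members 60% fell, and over all genes 20.8%. Rps2, at the mRNA entry, had 5448, 5252 and 5062 normalised counts with BAPN and 7121, 6588 and 5854 in controls (−0.31 ± 0.081, edgeR adjusted p 0.0195). Rps15 changed by −0.22, Rps26 by −0.26 and Rps28 by −0.27. Rps3, also at the entry, had 14734, 14893 and 15036 with BAPN and 17808, 16883 and 15908 in controls and missed the threshold with groups apart (−0.18 ± 0.066, adjusted p 0.0663, and 0.0295 with the replicate block), as did Rps23 (−0.36, adjusted p 0.073).

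Small subunit genes with small p included Rps3a1, Rps25, Rps4x, Rps18, Rps9 and Rps28. Rps3a1 had 2007, 2049.9 and 2079 with BAPN and 2698, 2549 and 2496 in controls (−0.34 ± 0.057, edgeR adjusted p 0.00347). Rps25 had 1966, 1872 and 1870.4 with BAPN and 2277, 2346 and 2331 in controls (−0.28 ± 0.054, adjusted p 0.00547). The other 4 changed by between −0.27 for Rps28 and −0.38 for Rps18. Rps9 (chr7:3703993-3706897, plus strand), a gene of high level, was at 8241, 8076 and 8633 with BAPN and 10956, 10069.6 and 9697 in controls. Every BAPN library was below every control library for these 3 genes, and for Rps9 control replicate 3 was the control nearest to them.

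Rps6, the substrate of the S6 kinases whose phosphorylation is the usual readout of mTORC1 activity, could not be judged. It had only 38.4, 26.1 and 40.4 normalised counts with BAPN and 56, 43.7 and 39.8 in controls, with overlapping groups (−0.42 ± 0.23, edgeR adjusted p 0.201). No 60-base window of its coding sequence is found in this gene alone, as described below for other members. The least changed members were Rpl24, Rpl10, Rpl22l1, Rps27, Rps20, Rpl17, Rpsa and Rps19. Of these, Rps20 and Rps19 were measured with the highest counts. Rps20 had 4758, 4501 and 4588 with BAPN and 4846, 4999 and 4713 in controls (−0.07 ± 0.057, adjusted p 0.357), and Rps19, the gene most often mutated in Diamond-Blackfan anaemia, had 2799.6, 2804 and 2844 with BAPN and 3179.8, 3032 and 2843 in controls (−0.10 ± 0.061, adjusted p 0.234). The nominal 95% intervals, −0.18 to 0.04 for Rps20 and −0.22 to 0.02 for Rps19, lie above the median of the members, −0.27. They use a normal approximation, which makes them too narrow for so few libraries. Of 19 members listed as Diamond-Blackfan genes in human, 11 fell, with a median of −0.27, the same as over all members. Among all tested members 60% fell, against 20.8% of all genes.

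Paralogs, copies of which some are used in certain tissues or under stress, numbered 8, of which 5 could be tested and 2 fell, Rpl7l1 and Rps4l. The share was 60% over all tested members and 20.8% over all genes. Rpl7l1, placed here and among large subunit genes by its name alone, fell by 0.34 on the log2 scale. Rpl7 changed by −0.25 (edgeR adjusted p 0.0221). Rps27l, a p53 target, had 2346, 2334 and 1983 with BAPN and 2925, 2690.2 and 2385 in controls (−0.26 ± 0.10, adjusted p 0.0654), with groups apart. It passed with the replicate block (adjusted p 0.00331) and missed with summed replicates (0.226). Its parent Rps27 had only 37.5, 36.3 and 28 with BAPN and 36.7, 24.4 and 46.4 in controls. Rpl22l1 had 244, 261 and 367 with BAPN and 302, 257 and 344 in controls, overlapping (−0.05 ± 0.18, adjusted p 0.839), beside Rpl22 at −0.21 (adjusted p 0.0317). BAPN replicate 3 had the highest Rpl22l1 count and the lowest Rps27l count of the BAPN libraries. The estimates of Rps27 and Rpl22l1 changed sign with total counts and when certain single libraries were left out. Rpl36al gave −0.19 (adjusted p 0.0773, and 0.0347 with the replicate block) and its parent Rpl36a −0.34 (adjusted p 0.124), and Rpl39 was called at −0.28 while Rpl39l was too low to test.

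Rps4l, annotated as a pseudogene and named as a form of Rps4, had the largest estimate of all members. It had 65.6, 102 and 62.2 normalised counts with BAPN and 109, 144 and 158 in controls, so the groups were narrowly apart (−0.84 ± 0.23, edgeR adjusted p 0.0226), and the call was lost when 1 library was left out (adjusted p up to 0.0804). The X-linked gene Rps4x had 3696, 3875 and 3841 with BAPN and 4915, 4741 and 4471 in controls (−0.31 ± 0.061, adjusted p 0.00632). The 4 members under the count filter were Rpl3l, a form specific to heart and skeletal muscle that replaces Rpl3 in mature fibres, Rpl39l, Rps27rt and Rps3a3. Rpl3l had 6.6, 8.4 and 10.4 with BAPN and 8.2, 8.1 and 13.3 in controls, and Rpl39l, known from testis, had 3.7, 2.8 and 0 with BAPN and 8.2, 2 and 0 in controls. At these counts no difference was detectable.

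Members with little coding sequence of their own had lower counts at the median. Ribosomal protein genes have many processed pseudogenes, and 81 of the 85 protein-coding members shared at least 1 window of 60 bases, the length of a read, exactly with a transcript annotated as a pseudogene. In 30 of the 85, no coding window of 60 bases was free of an exact copy in another annotated transcript. Those 30 had a median of 231 normalised counts in controls, the 39 members with some but under 50% free windows had 2318, and the 16 with at least 50% had 6904. Per kb of coding length the medians were 541, 4741 and 15647 normalised counts. Across the 85 genes the share of free windows and the control level per kb had a Spearman correlation of 0.67, as a description over genes that share the same libraries. Whether the authors' counting kept reads with several matching places is not given in the sources used here.

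**Figure D3:**
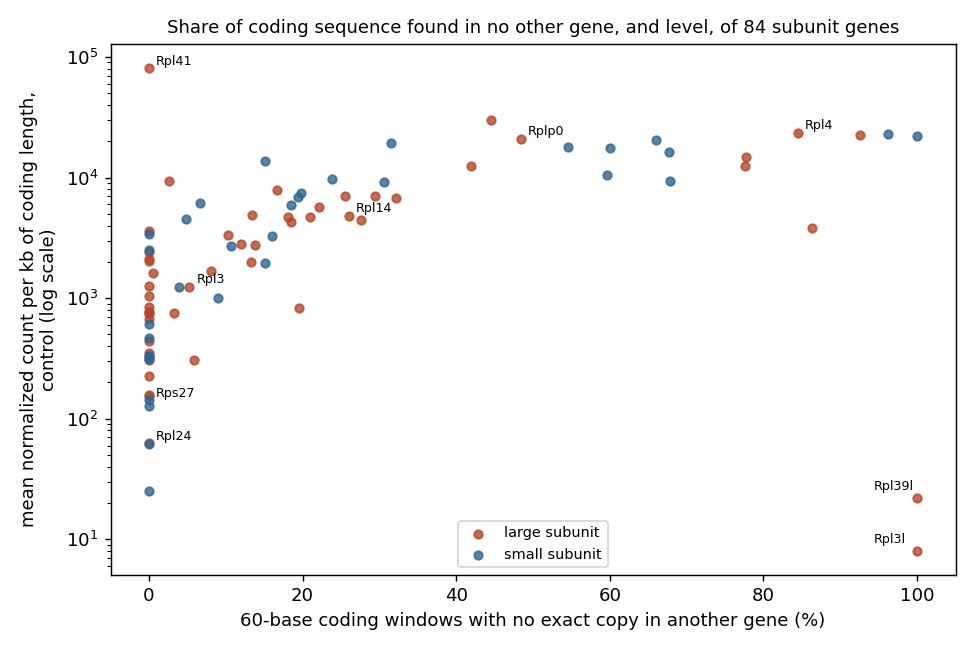
Mean normalised count per kb of coding length in control libraries (log scale) against the percentage of 60-base coding windows with no exact copy in another annotated gene, for the 84 protein-coding subunit genes. Genes at 0% spread over the lower levels with Rpl41, whose coding sequence is very short, as an exception, and genes above 50% lie high except the low paralogs Rpl3l and Rpl39l.

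Counts of such genes were not read as expression levels, since how shared reads were counted is not given. In controls the 30 genes with no free coding window ranged from 6.33 to 6017 normalised counts. Rpl24 and Rps27 are among them, and the cause of their low counts was not tested. Rpl24 was at 26.2, 26.1 and 34.2 normalised counts with BAPN and 34.6, 29.5 and 24.3 in controls. The direction was the same in all 3 classes, and 20.8% of all genes tested fell. Of tested protein-coding members, 14 of 29 with no free window fell with a median log2 fold change of −0.35, 25 of 39 with some fell with a median of −0.24, and 11 of 14 with at least 50% fell with a median of −0.24. The last class is the one in which reads can be assigned to the gene with least doubt. It holds Rps3 with 96.3% free windows, Rpl8 with 92.6% and Rpl4 with 84.5%. In addition, 15 members, 9 of them called, share exonic sequence with another annotated gene, and with no strand setting given genes such as Rpl5, Rpl12, Rpl28, Rpl30, Rpl32, Rpl35, Rps10 and Rps25 are uncertain on that account as well.

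The members' calls were set beside all genes of like level, since abundant genes more often fell. Among members with a mean of 100 to 1000 normalised counts 19 of 28 fell, against 19.4% of all genes at that level. Among those of 1000 to 10000, 29 of 43 fell, against 31.7%. Above 10000, 3 of 5 fell, against 55.4% of all genes, and the median log2 fold change there was −0.26 for both the 5 members and all 224 genes. At the highest level the share of members called was close to that of other abundant genes. From 10 to 100, 0 of 9 passed in edgeR, DESeq2 or limma-trend and 1 had an unadjusted p under 0.05, against 9.33% of all genes called there by edgeR.

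The number of members called differed between scalings. Scaling by total counts alone, in which the most abundant genes weigh most, moved the median of all 13716 genes up by 0.15 and left 6 members called lower (Rpl3, Rpl14, Rpl10a, Rpl27, Rpl27a and Rps4l), with 13 members above 0. Of all genes, 11% were called lower with that scaling. TMM factors gave 39 members (17.4% of all genes), upper quartile factors 41 (17.7%) and median-ratio factors from these 6 libraries 44 (18.1%). A scaling moves all genes by nearly the same amount, so that the distance of the members' median from the median of all genes, −0.23 with the authors' factors, is fixed by construction and tests nothing.

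**Figure D4:**
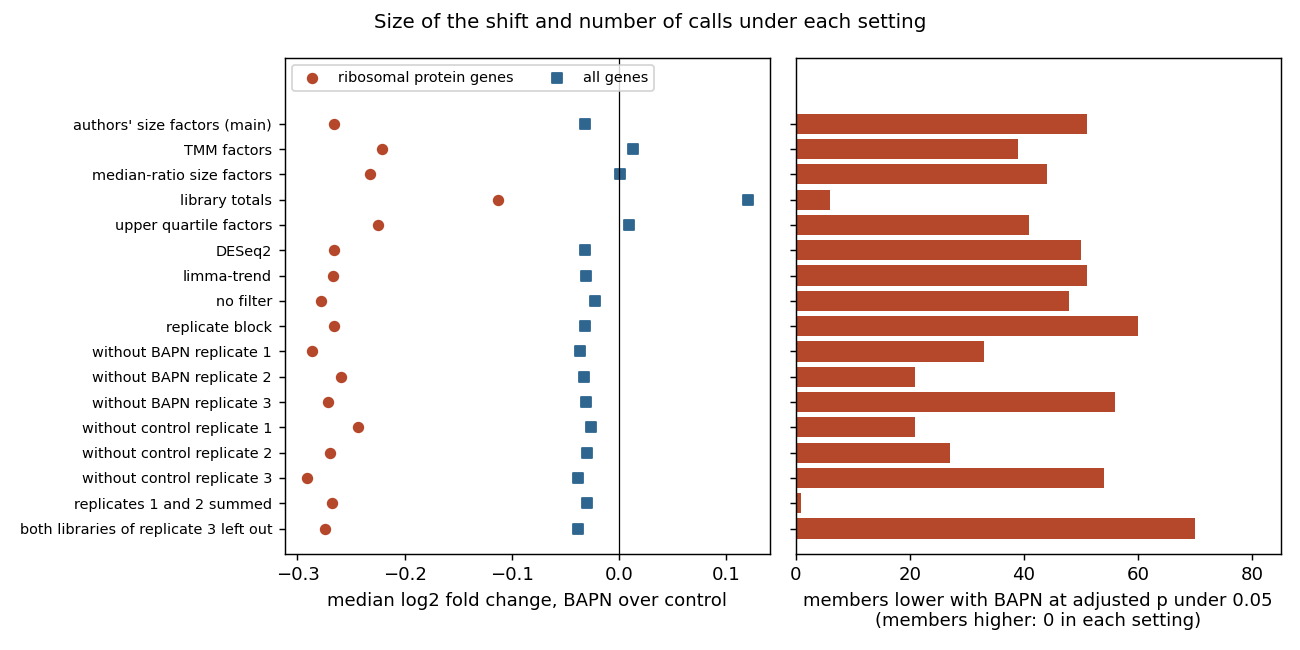
Median log2 fold change, BAPN over control, of the tested members (circles) and of all genes (squares) on the left, and the number of members called lower on the right, for each scaling, tool and set of libraries. A change of scaling moves circle and square together by construction. The calls range from 1 with replicates 1 and 2 summed to 70 with both replicate 3 libraries left out.

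Leaving out 1 library changed the number of calls more than the size of the shift. The test called 33 members lower without BAPN replicate 1 (14.5% of all genes), 21 without BAPN replicate 2 (13.6%) and 56 without BAPN replicate 3 (22.7%). It called 21 without control replicate 1 (14.9%), 27 without control replicate 2 (16.1%) and 54 without control replicate 3 (19.7%). Without both libraries of replicate 3 the count was 70 (31.1% of all genes), an alternative chosen after seeing the data. With the replicate number as a block, 60 members were called lower (27% of all genes): the 51 and, in addition, Rpl7a, Rpl13a, Rpl18, Rpl19, Rpl23, Rpl36al, Rps3, Rps14 and Rps27l. With replicates 1 and 2 of each group summed to 1 library, which leaves 2 libraries a group, Rpl10a alone passed, and 5.9% of all genes were called lower. The median of the members stayed between −0.29 and −0.24 over these fits. Calls that lasted without each of the 6 libraries in turn numbered 20 of the 51, 14 in the large and 6 in the small subunit. They included Rpl3, Rpl6, Rpl7l1, Rpl8, Rpl10a, Rpl14, Rpl26, Rpl27, Rpl27a, Rpl29, Rpl35, Rpl37a, Rpl38, Rpl41, Rps3a1, Rps4x, Rps18, Rps25 and Rps28. The share of all genes with calls that lasted in this way was not computed, so nothing is read from these counts about the members.

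Some ribosomal proteins have symbols outside the naming rule. Rack1, the small subunit scaffold for signalling proteins, had 19505, 19582 and 20165 normalised counts with BAPN and 23667, 23126 and 21989 in controls. It fell, with groups apart (−0.22 ± 0.064, edgeR adjusted p 0.0316), and 99.7% of its coding windows are free of copies. Fau (0.04 ± 0.11, adjusted p 0.782), which encodes a subunit protein fused to a ubiquitin-like protein, did not pass and has no free coding window. Rps27a, which encodes a subunit protein fused to ubiquitin, is a member and had 186, 156 and 164 with BAPN and 212, 231 and 216 in controls (−0.38 ± 0.11, adjusted p 0.027).

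Genes that build the ribosome fell too. Of 98 ribosome assembly genes tested, 52 fell and 0 rose in edgeR, against 20.8% of all genes lower and 15.6% higher, and their median log2 fold change was −0.26 (−0.03 over all genes). DESeq2 and limma-trend each called 0 of them higher, and 1 was higher at an unadjusted p under 0.05 in edgeR. Ddx56 and Ddx51, RNA helicases of large subunit assembly, changed by −0.73 ± 0.057 and −1.03 ± 0.083 (edgeR adjusted p 0.000212 and 0.000227). Ddx51 had 616, 580.2 and 641 normalised counts with BAPN and 1173, 1197 and 1376 in controls, a wide gap. Tbl3, of the complex that processes small subunit RNA, changed by −0.73 and Rrp12, a pre-ribosome export factor, by −1.06. Of 5 genes of RNA polymerase I, which transcribes ribosomal RNA, 3 fell, namely Polr1a (−0.46), Polr1b (−0.36) and Polr1e (−0.51), and so did the gene of its initiation factor Rrn3 (−0.25). The count of 52 was 28 with total counts, when 4 rose (11% of all genes lower), and 34 without BAPN replicate 2 (13.6%). It was 18 with summed replicates (5.9%) and 79 without both replicate 3 libraries (31.1%). With the replicate block 2 rose.

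Of 45 translation factor genes, 25 fell and 1 rose, against 20.8% and 15.6% of all genes, with a median log2 fold change of −0.20. The subunits of elongation factor eEF1B fell: Eef1b2 had 6859.9, 7127 and 7746 with BAPN and 10572, 10002 and 9940.4 in controls (−0.49 ± 0.068, edgeR adjusted p 0.00168), Eef1g changed by −0.49 and Eef1d by −0.32. Gspt1, the release factor eRF3a, changed by −0.43. Eif1, which sets start codon choice, was the gene that rose, with 5010.1, 4876 and 5491 with BAPN and 3637, 3801 and 3636 in controls (0.47 ± 0.065, adjusted p 0.0016). The elongation factor genes Eef1a1 and Eef2, Pabpc1, for a poly(A)-binding protein, and Tpt1 did not pass: Eef1a1 was at 0.08 (adjusted p 0.365), Eef2 at −0.17 (adjusted p 0.0999, and 0.0312 with the replicate block), Pabpc1 at 0.30 (adjusted p 0.0838, and 0.00219 with the replicate block) and Tpt1 at −0.09 (adjusted p 0.248). The 25 that fell came to 10 with total counts, when 5 rose (11% of all genes lower), 16 without control replicate 1 (14.9%) and 1 with summed replicates (5.9%). With the replicate block 4 rose.

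Genes that control ribosome production moved in both directions, 10 of 40 up and 10 down, against 15.6% of all genes higher and 20.8% lower, and nothing is read from these counts about the list as a whole. Among negative regulators of mTORC1, Ddit4 had 1634, 1669.9 and 1750.2 with BAPN and 884, 929.9 and 846 in controls (0.93 ± 0.063, edgeR adjusted p 0.000137), and Sesn2 rose by 0.85 and Depdc5 by 0.29, while Deptor, Tsc2, Tbc1d7 and Nprl3 fell. Eif4ebp1, a repressor of cap-dependent translation, rose by 0.75. Mtor changed by −0.52, its partner Rptor by −0.35, and the S6 kinase genes Rps6kb1 and Rps6kb2 by −0.77 and −0.68, all lower. Larp1 did not pass (−0.07 ± 0.086, adjusted p 0.533). With total counts 19 of the 40 rose, as did 3384 of all 13716 genes, and with summed replicates 6 fell (5.9% of all genes).

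The MYC network, which drives transcription of ribosomal genes in growing cells, moved on both sides. Myc rose (1.20 ± 0.19, edgeR adjusted p 0.00249), with 1390.0, 1319 and 2134 with BAPN and 705, 780.5 and 621 in controls, and BAPN replicate 3 was the highest. Of the genes for repressors that compete for its partner MAX, Mxi1 rose most, with 971, 1119 and 1079 with BAPN and 254, 239.9 and 239.9 in controls (2.11 ± 0.082, adjusted p 2.14e-05). Mxd1 (0.87) and Mnt (0.75) rose as well and Mxd4 (−0.71) fell. Maf1, a repressor of RNA polymerase III, rose by 0.30. These are mRNA levels, and the activity of the proteins was not measured.

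**Figure D5:**
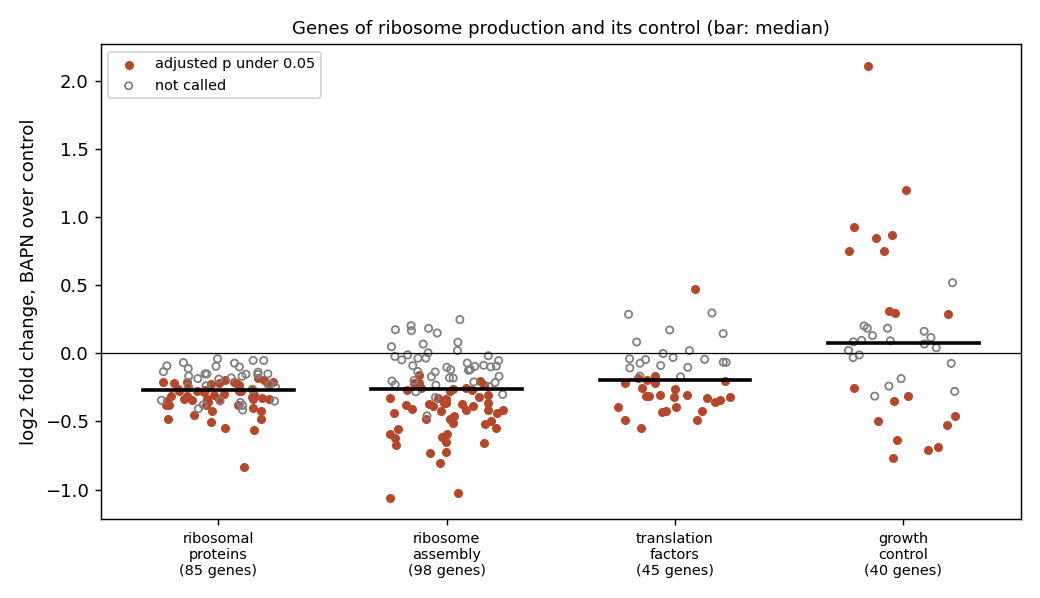
Log2 fold change, BAPN over control, of each tested gene of 4 groups: 85 ribosomal protein genes, 98 ribosome assembly genes, 45 translation factor genes and 40 growth control genes; filled points have an adjusted p under 0.05 and bars are medians. The ribosomal protein genes form the narrowest group and lie wholly below 0 (13 lie above 0 with total counts), and the growth control genes spread to both sides with Mxi1 at the top.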

How the data were processed

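RNA of 6 libraries was sequenced as single reads of 60 nt, per the labels' protocols. The tools named in the submitters' processing notes are STAR, HTSeq, cutadapt and DESeq2, and the build is GRCm38 (mm10). No source used here gives their versions, the annotation or the strand setting. The authors deposited raw counts per gene symbol for 18864 genes, of which 503 had none in any library, and normalized counts, a signal equal to the count divided by 1 size factor per library. The authors also deposited a log2 fold change and an adjusted p-value per gene.

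The test was glmQLFit and glmQLFTest in edgeR 4.0.16 (R 4.3.3) on the deposited counts scaled by the authors' size factors, for the 13716 genes whose normalized counts averaged at least 10, without a block, called at a Benjamini-Hochberg adjusted p under 0.05. The same script was tested on simulated data. Alternatives were DESeq2 1.42.0, limma 3.58.1 (pseudocount 1), other scalings, no filter, the replicate block, left-out libraries and summed replicates.

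Groups came from the treatment labels and replicate numbers from the titles. Departures of each library from its group mean were correlated across genes between BAPN and control libraries. Within a replicate number the correlations were 0.18, 0.19 and 0.37 for numbers 1, 2 and 3. Between numbers, BAPN replicate 1 and control replicate 2 reached 0.23, and BAPN replicate 2 and control replicate 1 reached 0.11. These values set replicate 3 apart in both groups but cannot show whether same-numbered samples are paired. The main test therefore has no block, and the replicate block is an alternative. The p-values rest on the spread among 3 libraries per group.

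Windows of 60 bases from the principal coding sequence (the whole transcript for 4 pseudogenes) were searched on both strands in GENCODE M21 transcripts of other genes; that annotation may not be the authors'. Members and lists were chosen with earlier results of these data known. Genes were named by rule: Rpl3, Rpl14 and Rpl6, the 8 members of each subunit with the smallest p and the 4 with the highest mean, the role groups, paralogs with their parents, Fau and Rack1, the 4 smallest p of the other lists, and the myogenic genes; others were added after their values were seen. Some genes that the rule names are not reported here. Polr1f, Zbed1, Tcf21 and Rpl10l, listed for these groups, were not analysed here.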

Additional observations from a re-analysis of the deposited data

How the results depend on the processing

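The number of members called lower was 51, beside 20.8% of all genes, and 0 rose in each fit tried. It came to 6 with library totals (11% of all genes) and 1 with replicates 1 and 2 summed (5.9%). Leaving out 1 library gave 21 to 56 (13.6% to 22.7%). The replicate block gave 60 (27%), and changed the counts of genes called higher to 4 translation factors and 2 assembly factors. Without both replicate 3 libraries 31.1% of all genes were called lower. These shares stand beside the lists below as well. Of all 13716 genes, 2140 were called higher, 2450 with TMM factors, 2433 with upper quartile factors and 3384 with library totals. They numbered 2790 with the block, 3223 without both replicate 3 libraries and 1461 to 2329 with 1 library left out. The large and small subunit medians were −0.23 and −0.22 with TMM factors, −0.24 and −0.23 with median-ratio factors, −0.12 and −0.11 with library totals, and −0.23 and −0.22 with upper quartile factors, which follows from the shift of all genes. Translation factors called higher (1) came to 2 with TMM factors, 5 with library totals, 2 with upper quartile factors, 4 without both replicate 3 libraries and 1 to 2 with 1 library left out. Those called lower (25) came to 10 with library totals, 1 with summed replicates and 16 to 25 with 1 library left out. Assembly factors called higher (0) came to 1 with TMM factors, 4 with library totals and 0 to 1 with 1 library left out. Those called lower (52) came to 28 with library totals, 18 with summed replicates, 79 without both replicate 3 libraries and 34 to 60 with 1 library left out. Growth control genes came to 19 higher with library totals and 6 lower with summed replicates. The cause was not tested where no reason is given.

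Over the named genes and alternatives, 875 values kept their direction and side of the threshold, 23 gained the call, 123 lost it and 19 changed sign. With library totals the log2 fold change of Rplp0 was 0.038, the log2 fold change of Rpl10 was 0.10, the log2 fold change of Rpl17 was 0.062, the log2 fold change of Rpl22l1 was 0.10 and the log2 fold change of Rps27 was 0.090. Leaving out 1 library at a time moved the log2 fold change of Rpl10 between −0.11 and 0.015, the log2 fold change of Rpl22l1 between −0.25 and 0.060, the log2 fold change of Rps27 between −0.28 and 0.16, the log2 fold change of Fau between −0.029 and 0.10 and the log2 fold change of Myf5 between −0.38 and 0.22. Without both replicate 3 libraries the log2 fold change of Rps27 was 0.27, the log2 fold change of Fau was −0.077 and the log2 fold change of Myf5 was −0.40. The log2 fold change of Myf5 was −0.042 with limma-trend and −0.026 with the replicate block.

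With these libraries, counts under 100 limit what can be said of members whose coding sequence has copies elsewhere.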
